A study of Mus musculus with 4 samples.

Results

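The ubiquitin-specific proteases (USPs) were examined as a gene family in C2C12, a line of mouse myoblasts that fuse into multinucleated fibres when they differentiate in culture. A gene was taken as a member where the array annotation assigned a probe set to that gene alone and its symbol was Usp followed by a number. This gave 45 genes of the 18193 named on the array, with 112 probe sets between them. Genes were chosen by symbol, and where a gene had several probe sets the brightest was selected on its mean log2(signal + 16) over the 4 arrays. That choice used the level of the signal and not the difference between groups, but the family itself was picked with earlier results of these data known. Symbols that end in a letter, such as Usp9x, were not counted as members. Of the 45 genes, 41 lay in the upper 60% of mean signal and were tested, and 4 (Usp18, Usp26, Usp44 and Usp50) did not pass that filter.

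In the tested cultures, labelled SFMBT1 knock-down, C2C12 cells were stably transduced with the lentiviral vector pLKO.1 carrying a short hairpin RNA (shRNA) against Sfmbt1, a chromatin protein with MBT repeats. The vector control cultures carried the same vector with a control shRNA, which one label calls scrambled and another names for luciferase. All cultures were kept in serum-rich growth medium with puromycin, and each group had 2 cultures described as independent biological replicates, with 1 Affymetrix array per culture. Whether each culture was transduced on its own is not stated, so the spread between these cultures may be technical. The p-values rest on that spread, taken mostly from genes of similar signal (2 residual and 19.0 prior degrees of freedom).

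USPs are cysteine proteases that cut ubiquitin from proteins or disassemble ubiquitin chains, and so counteract the ubiquitin ligases. They form the largest of the deubiquitinating enzyme families, and differ in their substrates through the domains around a shared catalytic core. In skeletal muscle, ubiquitin-dependent turnover takes part both in the exit of myoblasts from proliferation and in the loss of protein during atrophy.

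The signal of Sfmbt1 was lower in the knock-down in the 4 of its 5 probe sets that lay above background in the control, and the remaining probe set was in the background range on all 4 arrays. In probe set 1422893 its signal was 89.2 and 139 in the knock-down cultures, against 230.3 and 291.5 in the vector controls, so that the knock-down mean was 43.7% of the control mean. Probe sets 1429749 and 1455412 kept 67.7% and 69.2% of the control mean, and in 1422894 it was at least 3.77-fold lower. The 27 probe sets for bacterial genes served as background: their 95th percentile on each array was 69.3 and 42.9 on the knock-down arrays and 49.1 and 53.2 on the control arrays. The share of probe sets above these limits was 56.2% and 67.6% in the knock-down and 65.0% and 64.3% in the control, lowest on knock-down replicate 1. The myoblast label was matched by its markers: all 8 myoblast genes (among them Myod1, Myf5 and Des) lay above background on all 4 arrays. The endothelial genes Pecam1 and Tie1, the leukocyte gene Ptprc and the adipocyte genes Adipoq, Lep and Cidec lay in the background range on all 4 arrays. Other markers of non-muscle cells did not. Above background on all 4 arrays were 5 of 6 macrophage genes (Cd68, Adgre1, Csf1r, Cd14 and Lyz2), 3 of 4 neural and glial genes (Rbfox3, Syn1 and Sox10) and the endothelial gene Kdr. The endothelial gene Cdh5, the adipocyte gene Fabp4 and the glial gene Gfap were above it on 3 arrays. The endothelial gene Tek was above it on 1 array of each group. Cdh5, Gfap and Tek did not pass the filter on dim signals. None of the others was called, and the part of these genes in the results was not tested.

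With each gene read from its brightest probe set, Usp2 rose in the knock-down, by at least 4.52-fold, and no USP gene passed the test in the other direction. Among dimmer probe sets, 1 each of Usp1, Usp48 and Usp7 was lower in a separate fit of every probe set. Differences were tested with limma over all 11949 genes past the filter, and a gene was called where its Benjamini-Hochberg adjusted p was under 0.05. By this rule 1 of 41 USP genes (2.44%) was called, against a background of 3.93% of all genes tested (1.81% higher and 2.12% lower), so the share of the family called was near that of all genes. At an unadjusted p under 0.05 there were 9 USP genes (21.95%), 6 with a positive and 3 with a negative difference, against 16% of all genes. This count depended on the arrays and the variance model: it was 3 (7.32%, against 11% of all genes) without control replicate 1, 5 (12.2%, against 12.6%) without control replicate 2 and 4 (9.76%, against 12.8%) without the variance trend. In most other settings the USP share was above that of all genes. It was 25% against 15.1% without probe sets shared between transcripts, and 15.6% against 11.3% without the filter. With arrays centred on their median it was 22% against 21.3%. With the replicate number as a block it was below that of all genes (19.5% against 21.3%), as it was without knock-down replicate 1. The median log2 difference over the 41 genes was 0.02, the same to 2 decimals as over all genes tested, and 21 were positive and 20 negative. The median size of the difference, without sign, was 0.20 log2 units for the USP genes and 0.18 for all genes. Centring each array on its median gave 377 genes higher and 235 lower over all genes, in place of 216 and 253, which took the share of higher calls to 61.6% from 46.1%. Under that centring Usp22 also passed, with a log2 difference of 0.36 (limma adjusted p = 0.0487).

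**Figure D1:**
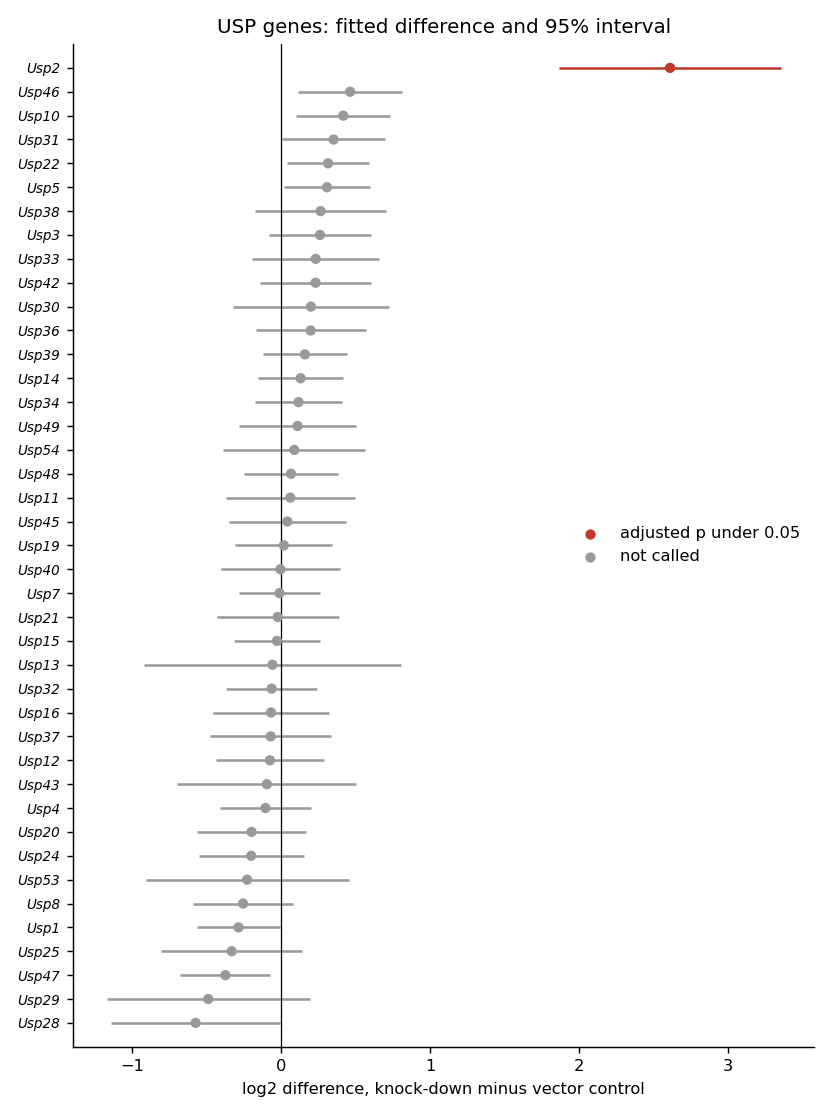
Fitted log2 difference, knock-down minus vector control (horizontal axis), for each of the 41 tested USP genes (rows, highest at the top), with 95% intervals as bars. Usp2 stands at 2.61 with an interval of 1.87 to 3.35, and the other 40 genes lie between -0.57 and 0.46.

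**Figure D2:**
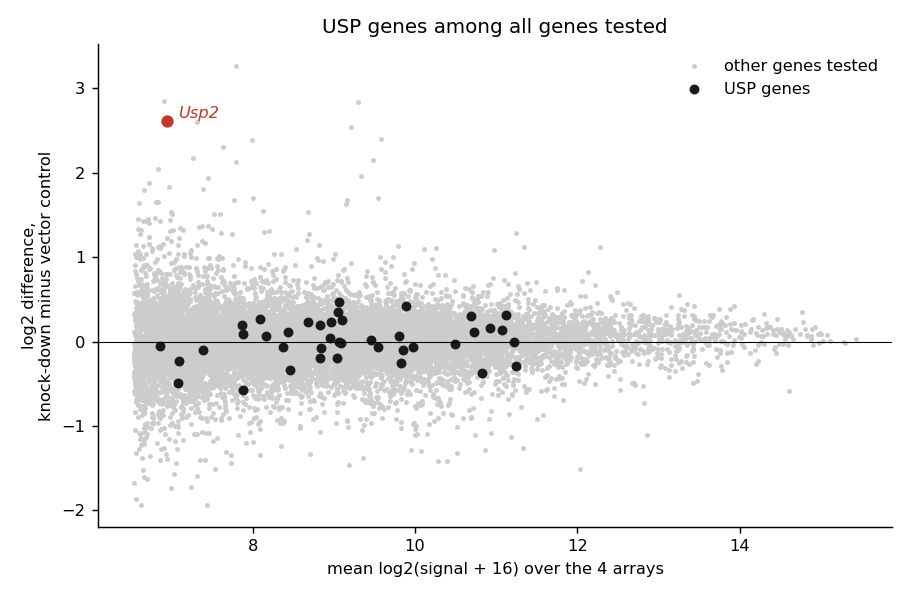
Log2 difference, knock-down minus vector control (vertical axis), against the mean log2(signal + 16) over the 4 arrays (horizontal axis) for all 11949 genes tested (grey) with the 41 USP genes in black and Usp2 in red. The USP genes other than Usp2 sit within the main cloud of genes, and Usp2 stands at 2.61, a fitted value that rests on control arrays in the background range.

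The family's expression can be set beside the sequence in front of its genes. Promoter windows, running from 250 bases before to 50 bases after an annotated start, were available from RefSeq (GRCm38.p6) for 34 of the 45 genes. Shown are the windows of Usp2, the gene that was called, of Usp46, which had the next highest difference, and of Usp28, which had the lowest. They lie at chr9:44084670-44084969 on the plus strand, chr5:74068362-74068661 on the minus strand and chr9:48985135-48985434 on the plus strand, each written 5′ to 3′ along its gene. Capitals mark GGGCGG, the core letters of the GC box bound by Sp-family factors, or its reverse complement.
Usp2: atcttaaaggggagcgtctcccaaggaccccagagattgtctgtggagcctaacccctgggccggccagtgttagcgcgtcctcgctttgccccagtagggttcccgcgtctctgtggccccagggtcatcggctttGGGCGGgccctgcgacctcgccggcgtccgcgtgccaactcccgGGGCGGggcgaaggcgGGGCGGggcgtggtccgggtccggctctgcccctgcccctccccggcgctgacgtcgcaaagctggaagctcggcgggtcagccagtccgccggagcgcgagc
Usp46: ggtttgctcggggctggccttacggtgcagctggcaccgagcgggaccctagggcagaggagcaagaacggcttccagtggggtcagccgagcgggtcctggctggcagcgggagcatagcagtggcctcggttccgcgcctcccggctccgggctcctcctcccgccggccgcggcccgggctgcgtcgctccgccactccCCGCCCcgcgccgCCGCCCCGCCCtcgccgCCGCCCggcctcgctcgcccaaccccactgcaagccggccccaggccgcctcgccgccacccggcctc
Usp28: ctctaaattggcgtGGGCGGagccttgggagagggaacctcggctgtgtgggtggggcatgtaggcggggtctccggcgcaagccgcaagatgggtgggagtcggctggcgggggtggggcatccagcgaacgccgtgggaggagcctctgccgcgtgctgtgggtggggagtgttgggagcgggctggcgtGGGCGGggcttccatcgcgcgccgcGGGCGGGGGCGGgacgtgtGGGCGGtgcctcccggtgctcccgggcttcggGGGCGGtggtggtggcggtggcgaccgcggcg
The GC box letters occur 3 times in the Usp2 window, 4 times in that of Usp46 and 6 times in that of Usp28, so they were present in genes with differences of either sign. They were found on either strand in 23 of 34 USP windows (67.6%), against 35.7% of all 32841 windows of that length, and the median GC content was 65.0% in USP windows and 52.7% in all windows. The E-box letters CANNTG, the core recognised by myogenin and other basic helix-loop-helix factors and their own reverse complement, were in 19 of the 34 USP windows (55.9%) and in 72.3% of all windows. The form CAGCTG was in 11.8% of USP windows and 16.3% of all windows, the form CACGTG, bound by the clock factors, in 11.8% and 7.15%, and the CRE letters TGACGTCA in 2.94% and 1.79%. Neither the Usp2 nor the Usp28 window holds a CANNTG, and the Usp46 window holds CAGCTG. The set of all windows was not limited to the genes tested here, nor matched to the USP windows in GC content or expression. The window covers 1 annotated start of Usp2, and a match or its absence describes these letters only.

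Usp2 encodes a deubiquitinase whose RNA cycles with the circadian clock in many mouse tissues, and whose long and short isoforms have been described in rat myoblasts as acting on differentiation in opposite ways. Its signal in probe set 1417169 was 281.3 and 294.3 in the knock-down cultures, against 43.5 and 25.6 in the vector controls. The groups were far apart: both knock-down arrays were well above background, and both control arrays lay in the background range. The mean was 287.8 ± 9.19 in the knock-down and 34.6 ± 12.7 in the control (SD, n = 2 each), and the fitted log2 difference was 2.61 (SE 0.36, limma adjusted p = 0.000118). Because the control level is bounded by background alone, the fold is given as at least 4.52, computed on the log2(signal + 16) scale with each control array at its background limit. Usp2 passed the filter on dim signals through its knock-down arrays, as its control mean lay under the limit of 76.8, and it was the only one of the 41 members of which this was true. Without any filter it still passed (adjusted p = 0.0473 over 18193 genes), and with the filter at the upper 40% it was not tested.

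The second Usp2 probe set did not show this rise. Probe set 1417168, whose suffix marks probes shared by alternative transcripts of a gene, gave 41.4 and 43.4 in the knock-down, against 54.2 and 56.5 in the control. These values lay at or near the background of their arrays, and the knock-down values were the lower ones (log2 -0.29, not tested because the mean lay under the filter). The rise of Usp2 therefore rests on 1 of its 2 probe sets. In the mean over both, Usp2 fell under the filter and was not tested.

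Usp2 moved with genes of differentiated muscle. Among the 10 markers of that list 9 were tested, of which 8 rose and 0 fell (1.81% and 2.12% over all genes), 6 of the 10 lay above background on all arrays, and the list's summed signal was 6743 and 7060 in the knock-down, against 1793 and 1431 in the control. In 4 of the 8 (Myh3, Tnni1, Tnnt1 and Myh1) the control mean lay under the filter limit, so that they were tested because of their knock-down signals. Myog, which encodes the differentiation factor myogenin, had signals of 1656.7 and 1832.6 in the knock-down and 341.9 and 296.2 in the control. Whether the muscle genes have a part in the Usp2 result was not tested, and in RNA from whole cultures a larger share of expressing cells and more RNA per cell cannot be told apart. Of the 8 myoblast markers 1 (Msc, a basic helix-loop-helix gene) was called higher and 0 lower. Their summed signals were 15187 and 16019 in the knock-down and 15191 and 17001 in the control, weighted to the brightest gene, Des (log2 0.21). Their median log2 difference was -0.20, with 3 of the 8 positive. The lowest was that of Myod1 (-0.31, limma adjusted p = 0.258).

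Genes for proteins described in other cells as USP2 substrates or partners did not pass the test. Of 8 tested, 0 were called higher or lower by limma, against 3.93% of all genes, so that 0 calls is near the background. At an unadjusted p under 0.05 there were 1 positive and 1 negative difference of the 8, against 16% of all genes. The arrays measure RNA, so the levels of these proteins were not seen. Ccnd1, which encodes cyclin D1, had signals of 7783 and 8572 in the knock-down and 6779.2 and 7024.7 in the control (log2 0.24, adjusted p = 0.307). Per1, a period gene of the circadian clock, had 257 and 204.1 in the knock-down and 274.3 and 436.9 in the control (log2 -0.56, adjusted p = 0.213). The groups did not overlap in either gene. Of the 6 genes nearest to Usp2 on chromosome 9, C1qtnf5 and Mfrp were not analysed here. The other 4 (Nectin1, Thy1, Trim29 and Rnf26) were not called, with log2 differences between -0.22 and 0.22.

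**Figure D3:**
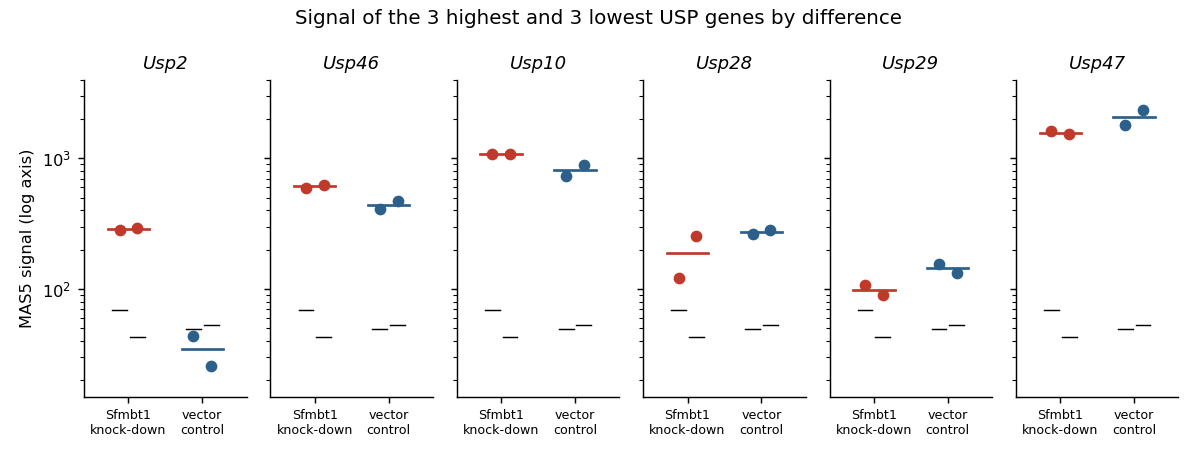
MAS5 signal on a log axis for the 3 USP genes with the highest and the 3 with the lowest differences, with the knock-down cultures (red) left of the vector controls (blue) in each panel. Points are single arrays, coloured lines are group means, and short black lines are each array's background limit. For Usp2 the control arrays (43.5 and 25.6) lie under their limits, and all other points lie above them.

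The remaining members of the cell cycle and clock group were Usp37, which deubiquitinates cyclin A, and Usp42, which acts on p53. Neither was called: Usp37 differed by -0.07 and Usp42 by 0.23 log2 units, and the groups overlapped in both. A second tested probe set of Usp37 gave 0.46.

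USP genes with roles in DNA repair and the p53 pathway went both ways, and 0 of 9 passed, with 1 positive and 3 negative differences at an unadjusted p under 0.05. Over all genes 3.93% passed, so that few or no calls in groups of this size, here and below, are near the background. Such an unadjusted p was found in 16% of all genes, the share to set beside this group and those below. The 1 positive and 3 negative of 9 here together lay above that share. Each gene was placed in 1 group only: Usp42, which acts on p53, was not counted here, and Usp48, which acts on histone H2A, was. The group is small, and the excess was not tested. Usp10, which deubiquitinates p53 and binds the stress granule protein G3bp1, had signals of 1088.3 and 1075.1 in the knock-down and 733.3 and 884.9 in the control. Its groups did not overlap, and its log2 difference was 0.42 (SE 0.15, limma adjusted p = 0.151). G3bp1 itself differed by 0.12 log2 units.

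Usp28, a relative of Usp25 that binds the damage-response protein 53BP1, had the lowest difference of the family, -0.57 (SE 0.27, limma adjusted p = 0.303). Its signal was 122.6 and 253.4 in the knock-down, against 262 and 281.3 in the control, so knock-down replicate 1 was the low array. Without that array the difference was -0.09 (adjusted p = 0.917), and without knock-down replicate 2 it was -1.05 (adjusted p = 0.0111). A fit without 1 array leaves a single array in that group, which is assumed to vary like the other group and like genes of similar signal. Usp25 differed by -0.33 (adjusted p = 0.527), with overlapping groups. Trp53bp1, the gene of 53BP1, differed by 0.34 (adjusted p = 0.332).

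Usp47, which acts on the repair polymerase beta, had 1623.6 and 1528.2 in the knock-down and 1788.6 and 2337.5 in the control (log2 -0.37, limma adjusted p = 0.188). The groups did not overlap, but its other tested probe sets gave -0.02 and 0.06. Usp29, an imprinted gene expressed from the paternal copy, had 107.5 and 90.2 in the knock-down and 156.9 and 133.3 in the control (log2 -0.49, adjusted p = 0.514). Its neighbour Peg3, a zinc finger gene imprinted in the same way, was called higher with a log2 difference of 0.62 (adjusted p = 0.00498), though not without control replicate 1 (0.0637). The difference between these neighbours was not tested. Usp11 and Usp45 differed by less than 0.1 log2 units.

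Usp1, Usp7 and Usp48 belong to the same group, and here the answer depended on the probe set. Usp1 works with the WD-repeat protein Wdr48 to remove ubiquitin from FANCD2 and PCNA, Usp7 acts on p53 and its ligase Mdm2, and Usp48 acts on histone H2A. In their brightest probe sets they differed by -0.28, -0.01 and 0.07 log2 units, with limma adjusted p = 0.301, 0.984 and 0.894. In a fit without the reduction to 1 probe set per gene, 728 of 20967 probe sets (3.47%) were called, and 2.08% of the 20967 were lower. Of the 89 USP probe sets 4 (4.49%) were called. These were the bright Usp2 probe set, which was higher, and 1 other probe set each of Usp1, Usp48 and Usp7, which were lower. They were singled out after their values were seen.

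In Usp1, probe set 1423674 gave 875.6 and 914.8 in the knock-down and 1557.8 and 1519.6 in the control, with no overlap (log2 -0.77, limma adjusted p = 0.00775). The third Usp1 probe set gave -0.16, so all 3 were negative. In Usp48, probe set 1419277 gave 222.7 and 197.4 in the knock-down and 397.8 and 385.7 in the control (log2 -0.85, adjusted p = 0.0286), and probe set 1419278 gave -0.42. Both were opposite in sign to the brightest Usp48 probe set. In Usp7, probe set 1437118 gave 362.1 and 393.4 in the knock-down and 662.6 and 566.3 in the control (log2 -0.68, adjusted p = 0.0442). The 7 tested Usp7 probe sets ran from -0.68 to 1.01. The highest, probe set 1454949, had a control array in the background range (46.9) and gave 221 and 262.9 in the knock-down, against 46.9 and 242.2 in the control.

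Leaving out control replicate 1 ended the calls of the Usp48 (limma adjusted p = 0.0965) and Usp7 (0.279) probe sets, and leaving out control replicate 2 that of Usp48 (0.0558). For Usp1 the adjusted p was between 0.000219 and 0.0240 in these fits, each of which has 1 array in a group. With dim probe sets kept in the test, none of the 3 passed (0.0582 for Usp1, 0.153 for Usp48 and 0.165 for Usp7), nor did any without the variance trend (0.169, 0.164 and 0.203).

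Probe sets of 1 gene often differed. In 28 of the 41 genes more than 1 probe set was tested, and in 18 of these 28 the probe sets differed in sign (64.3%), against 49.3% of the 5339 genes of any kind with several tested probe sets. The median distance between the lowest and highest probe set of a gene was 0.411 log2 units, against 0.323 over those genes. The number of probe sets per gene was not matched in this comparison, and no test was made of it. Usp46, Usp22, Usp39 and Usp32 were among those whose probe sets gave nearly the same value.

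**Figure D4:**
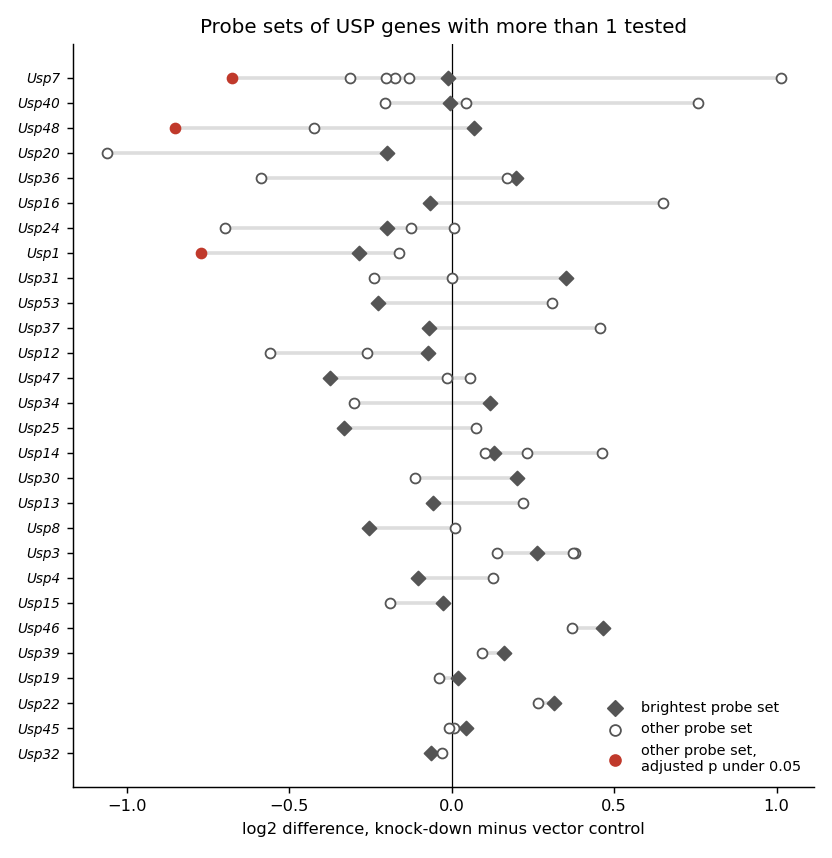
Log2 difference, knock-down minus vector control, of each tested probe set (points) in the 28 USP genes with more than 1 (rows, ordered by the distance between their probe sets). Diamonds are the brightest probe sets used for the family, circles are the others, and red marks an adjusted p under 0.05, seen in 1 probe set each of Usp7, Usp48 and Usp1.

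Of 11 USP genes that act on receptors, endosomes and growth factor signalling, 0 passed the limma test, with 1 positive and 0 negative at an unadjusted p under 0.05, and 7 of the 11 differences were negative. Usp46, which like Usp1 is activated by Wdr48, had signals of 596.5 and 623.6 in the knock-down and 407.2 and 470.5 in the control (log2 0.46, SE 0.17, adjusted p = 0.151). A second Usp46 probe set gave 560.2 and 584.1 in the knock-down and 391.8 and 491.4 in the control (log2 0.37). The knock-down was above the control in both probe sets, without overlap. Its close relative Usp12 differed by -0.07 in its brightest probe set and by -0.56 and -0.26 in others, and Wdr48 by -0.01.

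Usp8, which trims ubiquitin from receptors at the endosome, had 898.8 and 741.5 in the knock-down and 873.8 and 1092.5 in the control, with overlap (log2 -0.25, limma adjusted p = 0.478). The other tested Usp8 probe set gave 0.01. The genes for the binding partners of Usp8, Stam and Stam2, differed by -0.17 and 0.21. Usp4, Usp15 and Usp11, related enzymes that act on TGF-beta signalling among other substrates, differed by -0.10, -0.03 and 0.06. Second tested probe sets gave 0.13 for Usp4 and -0.19 for Usp15. The relatives Usp20 and Usp33 stood at -0.20 and 0.23, and a dimmer Usp20 probe set at -1.06 (64.6 and 60.7 in the knock-down, against 136 and 161.3 in the control), with 1 knock-down array in the background range and an adjusted p of 0.125. Usp32, Usp34, Usp43 and Usp54 lay between -0.09 and 0.12, and a second tested Usp34 probe set gave -0.30.

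Histone deubiquitinases gave 0 of 5 calls, with 1 positive and 0 negative at an unadjusted p under 0.05 in limma. Usp22, the deubiquitinase of the SAGA coactivator complex, had 2320.5 and 2636.3 in the knock-down and 1988.4 and 1979.8 in the control, with no overlap (log2 0.32, SE 0.13, adjusted p = 0.227). Its other probe set gave 0.26, also without overlap. The genes of its SAGA partners Atxn7l3, Eny2 and Atxn7 differed by 0.20, -0.06 and -0.45. Usp3, which acts on histone H2A, differed by 0.26, with 0.14 to 0.38 in its 3 other tested probe sets. Usp16, Usp21 and Usp49 lay between -0.07 and 0.11. A dimmer Usp16 probe set gave 0.65 without overlap and was not called. Usp44, the relative of Usp49, was in the background range on all 4 arrays.

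Usp5, which recycles unanchored ubiquitin chains, had 1774.4 and 1886.2 in the knock-down and 1381.1 and 1573.5 in the control (log2 0.31, limma adjusted p = 0.267). Its groups did not overlap. Its relative Usp13 differed by -0.06, but its knock-down arrays were far apart at 158.3 and 57.7, and its SE of 0.41 was the highest of the family. The other tested Usp13 probe set gave 0.22. Usp14, a deubiquitinase of the proteasome, differed by 0.13, with 0.10 to 0.46 in its 3 other probe sets. All 4 were positive and none passed.

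Usp19 is anchored in the endoplasmic reticulum and rises in atrophying rat muscle. It had signals of 664.4 and 721.5 in the knock-down and 666.9 and 699.8 in the control (log2 0.02, 95% interval -0.31 to 0.34, limma adjusted p = 0.973). The groups overlapped, and a second probe set gave -0.04. Usp30, an enzyme of the mitochondrial outer membrane that counteracts mitophagy, differed by 0.20 (limma adjusted p = 0.779). Its groups overlapped, and its other tested probe set gave -0.11.

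Usp36, an enzyme of the nucleolus, and Usp39, a splicing factor without protease activity, differed by 0.20 and 0.16 in their brightest probe sets. The interval around each included 0. Other tested probe sets gave -0.59 (without overlap) and 0.17 for Usp36 and 0.09 for Usp39, and none of these was called. Usp25 and Usp38, which act in innate immunity, had opposite signs in their brightest probe sets (-0.33 and 0.27, limma adjusted p = 0.527 and 0.605). A second tested Usp25 probe set gave 0.07. Usp18, which removes the interferon-induced modifier ISG15, was not tested: it had 52.1 and 50.4 in the knock-down and 20.9 and 58.4 in the control, with 1 array of each group in the background range. Of the other untested members, Usp26 was in the background range on all 4 arrays, and Usp50 lay above it on 1 control array, at 61.6. Among members with a less described role, Usp31 differed by 0.35 (adjusted p = 0.302) without overlap, but by -0.24 and less than 0.01 in 2 other probe sets. Usp24, Usp40 and Usp53 had log2 differences of -0.20, -0.0039 and -0.23. Their other tested probe sets, none of them called, ran from -0.70 to 0.01 in Usp24 and from -0.21 to 0.76 in Usp40. In Usp53 the other tested probe set gave 0.31.

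**Figure D5:**
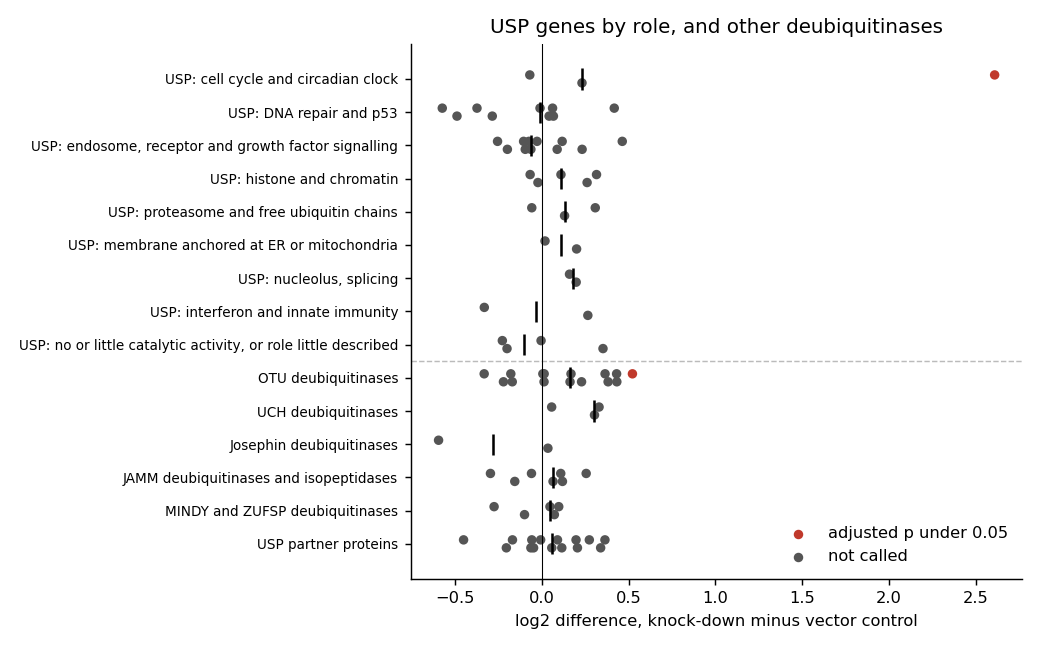
Log2 difference, knock-down minus vector control, of each tested gene (points) by role for the USP family (upper 9 rows) and for other deubiquitinases and USP partners (lower 6 rows), with the median of each row as a black bar. Usp2 at 2.61 and Otud4 at 0.52 are the genes with an adjusted p under 0.05.

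For the 40 tested USP genes that were not called, a missed threshold does not show an equal level. Their SE ran from 0.13 to 0.41 with a median of 0.17. The 95% interval lay inside a change of 1 log2 unit, which is 2-fold, in 38 of the 40, and inside 0.5 log2 units in 16. The exceptions at 1 log2 unit were Usp28 and Usp29. In 20 of the 41 tested genes (48.8%) the groups did not overlap, with the knock-down above in 11 and below in 9, against 45.1% of all genes tested (23.5% above and 21.6% below).

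Of 6 tested USP family genes with other symbols, 0 were called by limma in their brightest probe set, and 0 at an unadjusted p under 0.05. Usp9x, which is X-linked, differed by -0.01 in its brightest probe set, with 1122.4 and 1190.9 in the knock-down and 1166.6 and 1155.7 in the control. Its probe set 1420923 gave 78.3 and 120.1 in the knock-down and 255.5 and 223.4 in the control (log2 -1.17, limma adjusted p = 0.0367 over 20967 probe sets), and this call was lost without control replicate 1 (0.153). The tumour suppressor deubiquitinase gene Cyld differed by -0.23.

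Among deubiquitinases of the other families, 1 of 32 tested genes was called higher and 0 lower by limma, which is 3.12%, against 3.93% of all genes. At an unadjusted p under 0.05 there were 4 positive and 1 negative (15.6%, against 16%). The called gene was Otud4, an OTU-family enzyme, with 1947.2 and 1999.4 in the knock-down and 1220.3 and 1534.7 in the control (log2 0.52, adjusted p = 0.0411). Otud4 did not pass without control replicate 1 (0.525) or without knock-down replicate 2 (0.0519). Its relative Otud6b was next, at 0.43 (adjusted p = 0.0911). Among 15 tested genes for USP partner proteins 0 were called, and 0 at an unadjusted p under 0.05, with differences between -0.45 and 0.36.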

How the data were processed

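RNA from 4 C2C12 cultures, 2 per group, was measured on 1 Affymetrix array each. The deposited values are linear intensity values per probe set, used as deposited. The submitters' processing notes list MAS5 and GCOS, and any scaling between arrays is unknown. MAS5 values are noisy for dim probe sets, hence the pseudocount and the filter. The number of arrays limits the precision.

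Of 45101 probe sets, 34945 named 1 gene in the platform annotation, 932 several and 9160 none, and 64 were controls. Symbols were checked by gene identifier in RefSeq (GRCm38.p6), where 34741 probe sets matched. Among members of the gene lists, 0 had their annotated symbol changed by this check. Signals were transformed as log2(signal + 16), so fold changes of dim genes are understated. The brightest probe set per gene was kept where its mean lay in the upper 60% of named probe sets (a signal of 76.8). Knock-down minus control was tested with limma 3.58.1 in R 4.3.3 (eBayes with a variance trend, 2 residual and 19.0 prior degrees of freedom), with Benjamini-Hochberg adjustment over 11949 genes. An exact permutation test of 2 against 2 cannot give p under 0.333. The steps were tested on simulated data.

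Members and gene lists were chosen with earlier results of these data known. Named are all USP genes, with full statistics for called ones and for the 3 highest and 3 lowest differences; other genes come from fixed lists of deubiquitinases, partners, substrates and cell markers, or are chromosomal neighbours chosen later. Of the fixed lists, the ubiquitin and E1 genes had 2 tested members (0 called, 0 at an unadjusted p under 0.05), the macrophage list 5, the neural and glial list 3 and the endothelial and adipocyte lists 1 each, with 0 called. Replicate numbers were not described as pairing cultures. Alternatives changed the normalization, pseudocount, filter, variance model, probe sets and arrays used.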

Additional observations from a re-analysis of the deposited data

How the results depend on the processing

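Usp2 kept its direction and its call under each alternative in which it was tested, with log2 differences between 1.84 and 3.07 and limma adjusted p between 3.00e-10 and 0.0473. It was not tested with the filter at the upper 40% or with the mean of all probe sets of a gene, so 0 USP genes were called higher there. Median centring gave 2, with Usp22. Leaving out 1 array at a time gave 1 higher USP gene throughout, 0 to 1 lower (Usp28, without knock-down replicate 2), and USP medians from -0.04 to 0.10. Over all genes these fits called 132 (without control replicate 1) to 410 (without knock-down replicate 1) higher, and 121 (without control replicate 2) to 445 (without knock-down replicate 2) lower. Median centring called 377 higher. Without the filter 23 were higher and 32 lower, without the variance trend 12 and 1, without probe sets shared between transcripts 130 and 168, and with gene means 60 and 77. With every probe set tested 437 were lower.

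The replicate number as a block gave 341 higher and 317 lower over all genes and again 1 USP gene, Usp2 (adjusted p = 0.00485). Same-numbered arrays showed little common deviation (r = 0.02 across genes, which are not independent replicates). Whether they share a batch is not stated, and 1 correlation over genes cannot decide it. In the fit with this block the Usp9x probe set did not pass (limma adjusted p = 0.0564).

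Of the values of single genes and probe sets under the alternatives, 657 kept their side of the threshold or stayed within 1 SE, 42 uncalled ones moved further, 39 lost a call and 2 gained one. Up to 10 uncalled USP genes changed sign, most under gene means. Otud4, Eif4g2 (a neighbour of Usp47 at log2 0.42) and Peg3 lost their calls without the filter (adjusted p = 0.182, 0.294 and 0.0705) and also without the variance trend and under gene means. The Usp7 and Usp9x probe sets lost theirs under median centring (0.0572 and 0.0549) and quantile normalization. The causes were not tested. Background of 42.9 to 69.3 limits what can be said of the Usp2 control level and of the 4 untested genes.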
